A study of Mus musculus with 8 samples.

Results

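The Dlk1-Dio3 locus is an imprinted stretch of mouse chromosome 12, and its genes named here were Dlk1, Meg3, Rian, Mirg and Dio3. They were chosen by symbol, as all probe sets to which the platform annotation gives exactly 1 symbol that is one of the 5. This gave 19 of the 45101 probe sets on the array: 2 for Dlk1, 11 for Meg3, 4 for Rian and 2 for Mirg. None was listed under Dio3, the thyroid hormone-inactivating deiodinase, which is therefore not analysed here. The locus was proposed with 2 results of these arrays already known, namely that Meg3 differed by replicate number and that Dlk1 passed a paired test, so neither of these is independent evidence below. The cells were subcutaneous preadipocytes, cells that can turn into fat cells, of day 2 newborn C57BL/6 mice that were Dicer lox/lox in every sample. All 8 samples were transduced at 750 MOI with 4 µg/mL polybrene. The 4 controls received an adenovirus encoding GFP, and the 4 Dicer knockout samples received one encoding Cre recombinase and GFP, both from a CMV promoter by the virus names. RNA was taken 4 days later, with 1 Affymetrix array per sample. No sample had Cre virus without floxed Dicer, so an effect of Cre or of its virus and one of Dicer loss cannot be told apart in any comparison of the groups. Biological replicates are numbered 1 to 4 per group in the labels, which name no animals or cultures, so p-values measure only the spread between these samples.

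The locus carries protein-coding genes that are expressed from the paternal chromosome, among them Dlk1 and Dio3, and non-coding RNAs that are expressed from the maternal chromosome. Dlk1 encodes a transmembrane protein of the Notch ligand family, known in fat as preadipocyte factor, whose shed form restrains the differentiation of preadipocytes. Meg3, Rian and Mirg are long non-coding RNAs read in the same direction, Rian is a host of small nucleolar RNAs, and all 3 are hosts of microRNA hairpins that Dicer cuts into mature microRNAs. By RefSeq's annotation of GRCm38.p6 the chosen genes follow each other as Dlk1, Meg3, Rian, Mirg and Dio3. The protein-coding gene Rtl1, which was not chosen, comes between Meg3 and Rian in this order.

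The mature microRNAs that lie inside the measured transcripts are the link between the locus and Dicer, so some of their sequences are shown with bases 2 to 8, the seed, in capitals. The RefSeq tables place 57 hairpins of the transcribed strand between Dlk1 and Dio3, of which 2 lie within Meg3, 3 within Rian and 10 within Mirg. A further 13 lie between Meg3 and Rian and 29 between Rian and Mirg. Among the 106 mature sequences of these hairpins, 8 seeds were shared by more than 1 name. The sequences below are 2 from Meg3, 3 from Rian and 4 from Mirg, followed by 2 from the stretch between Rian and Mirg that share a seed with one of these. No mature microRNA was measured on these arrays.
mmu-miR-770-5p: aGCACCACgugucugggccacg
mmu-miR-770-3p: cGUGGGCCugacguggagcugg
mmu-miR-341-3p: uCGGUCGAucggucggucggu
mmu-miR-370-3p: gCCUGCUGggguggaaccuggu
mmu-miR-370-5p: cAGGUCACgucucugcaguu
mmu-miR-453: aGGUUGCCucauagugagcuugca
mmu-miR-496a-5p: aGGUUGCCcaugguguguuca
mmu-miR-410-3p: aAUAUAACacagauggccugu
mmu-miR-410-5p: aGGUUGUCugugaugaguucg
mmu-miR-494-5p: aGGUUGUCcguguugucuucuc
mmu-miR-1193-3p: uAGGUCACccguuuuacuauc
Within Mirg, mmu-miR-453 and mmu-miR-496a-5p have the same seed. The seed of mmu-miR-370-5p recurs in mmu-miR-1193-3p, and that of mmu-miR-410-5p in mmu-miR-494-5p.

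Array signals were linear and scaled to 1 level per array by the authors (trimmed mean 1500 on each), and their median lay between 321.1 and 418.9. Differences are knockout minus control of log2(signal + 73.1), which understates the change of dim probe sets, and the number of arrays limits the precision. Of the 19 probe sets, 18 passed the filter on low signal and were tested among 27022. Across the tested probe sets, control and knockout arrays of one number shared part of their deviations. A paired fit, which adds the replicate number as a block, is therefore given beside the unpaired one for many of the results. Odd-numbered arrays (1 and 3 of both groups) stood apart from even-numbered ones in the 18S ribosomal RNA 5′ control probe set, at 5906 to 14007 against 30584 to 43030. The 2 probe sets of Dicer1 had log2 differences of -0.15 (SE 0.20) and -0.26 (SE 0.28), neither past the threshold (limma adjusted p = 0.999 for both), and whether they lie in the excised segment is not known here. Stromal markers ranged widely in level, with Pdgfra between 11906 and 22613. Of the 14 on the array, 0 stayed under 200 on every array. Some were dim on part of the arrays, namely Dpp4 (48.4 to 641.5), Pi16 (71.5 to 793.6), Zfp423 (109.2 to 668.8) and Cd24a (84.5 to 1565). Markers of other cells were mixed. Adipoq of fat cells (31.3 to 126.7), Myf5 of muscle (1.0 to 41.2), Pecam1 of endothelium (43.2 to 210.1) and Ptprc of leukocytes (8.5 to 138.4) were low. Other markers of the same lists were not, with Fabp4 at 1877 to 6206, Des at 925.2 to 2013, Kdr at 810.8 to 1257 and Cd68 at 724.3 to 1750. Of the 6 Schwann and neural markers on the array, 0 stayed under 200 on every array, and Ngfr ranged from 1093 to 8603. The keratinocyte and epithelial markers Krt10 and Epcam ranged from 1632 to 2520 and from 1088 to 2135.

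Dlk1 was the member of the locus with a call, which was made in the paired fit and not in the unpaired one. The brighter of its probe sets, 1449939_s_at, read 72944, 44809, 50687 and 26167 in controls 1 to 4, respectively. In knockouts 1 to 4 it read 60140, 25168, 24503 and 15604. Each knockout array lay below the control array of the same number, while the groups as wholes overlapped, because control 4 read less than knockout 1. The knockout signal was 0.825, 0.562, 0.483 and 0.596 of the control signal in pairs 1 to 4. The log2 difference was -0.72, a fold of 0.605, with an SE of 0.37 unpaired and 0.11 paired. It did not pass in the unpaired fit (limma adjusted p = 0.999, 95% interval -1.52 to 0.07) and passed in the paired fit (limma adjusted p = 0.0436, 95% interval -0.95 to -0.49). The summed signal of the 7 pericyte and smooth muscle markers was 16830 to 25360 in controls and 27550 to 36540 in knockouts, mostly from Acta2, smooth muscle actin, at 14744 to 23499 and 25305 to 34490, while Myh11 was at 26.1 to 307.3. The part of this in the Dlk1 difference was not tested. In bulk RNA, fewer cells of a type and less RNA per cell cannot be told apart.

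**Figure D1:**
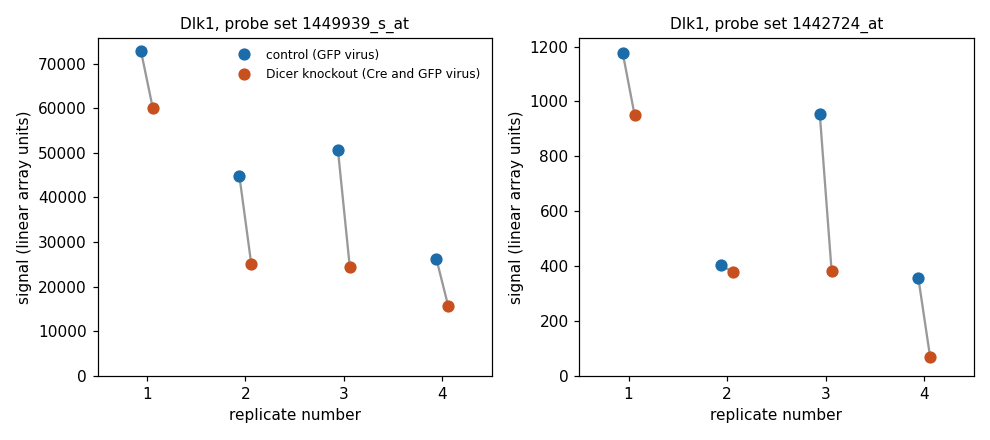
Signal of the 2 Dlk1 probe sets (vertical axes, linear array units, starting at 0) by replicate number (horizontal axes), with 1 point per array and a line joining the control and knockout arrays of the same number. The knockout point is lower in 4 of 4 pairs for both probe sets, and replicate 1 is the highest of each group.

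The second Dlk1 probe set, 1442724_at, is a much dimmer one and gave the same direction with more scatter. It read 1177, 402.4, 953.9 and 357.2 in controls numbered 1 to 4, and 951.6, 378.0, 381.7 and 68.3 in the knockouts so numbered. The 4 pairs were again all lower, with log2 differences of -0.29, -0.08, -1.18 and -1.61. The mean log2 difference was -0.79 (SE 0.52 unpaired, 0.27 paired), and it did not pass in either fit (limma adjusted p = 0.999 unpaired and 0.385 paired). The odd-numbered and even-numbered pairs of 1449939_s_at gave -0.66 and -0.79, and those of 1442724_at -0.73 and -0.84. Single arrays moved the unpaired value of 1449939_s_at, to -1.10 without knockout 1 and -0.45 without knockout 4. The paired call on it was kept without pair 1 (limma adjusted p = 0.00516) and lost without pair 2 (0.187), pair 3 (0.176) or pair 4 (0.191), with log2 differences of -0.87, -0.69, -0.62 and -0.72.

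Meg3, a maternally expressed RNA with growth-restraining activity in several cell types, differed little between the 2 groups and widely by replicate number. Its brightest probe set, 1452905_at, read 15276, 4575, 11014 and 3619 in controls 1 to 4, respectively. In knockouts 1 to 4 it read 11670, 4348, 10740 and 3956. The 4 odd-numbered arrays, of either group, thus lay above the 4 even-numbered ones with a wide gap between 4575 and 10740. The difference between groups was small beside this, at a log2 value of -0.09 (SE 0.46 unpaired, 0.09 paired, limma adjusted p = 0.999 and 0.837). The 95% interval of the paired fit ran from -0.30 to 0.11.

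The other 4 of the 5 brightest Meg3 probe sets also had all odd-numbered arrays above all even-numbered ones, with other orders of the arrays within these sets. The odd-numbered arrays read 7320 to 10326 and the even-numbered ones 2507 to 3147 for 1439380_x_at. For 1452183_a_at the ranges were 4522 to 6693 and 1401 to 2561. For 1426758_s_at they were 3279 to 3436 and 995.6 to 1510, and for 1436713_s_at 2965 to 3976 and 897.9 to 1437. Over the 5, the log2 difference of odd minus even was 1.37 to 1.56, or 2.59-fold to 2.95-fold. It was 1.14 to 1.69 in controls alone and 1.40 to 1.61 in knockouts alone. Their differences between knockout and control were -0.09 to -0.24, and 0 of the 5 passed by limma in either fit. The levels by replicate number are why Meg3 was singled out and are given here without a test.

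The 6 dimmer Meg3 probe sets did not all share this pattern. In the controls the dimmest of the 5 had a mean signal of 2424 and the brightest of the 6 one of 799. For 3 of the 6 the odd-numbered arrays still lay above the even-numbered ones. These were 1429257_at (804.1 to 986.7 against 506.9 to 773.1), 1428764_at (322.8 to 440.0 against 180.2 to 322.4) and 1452906_at (135.0 to 332.9 against 55.2 to 103.1), the last of which was too dim to be tested. The other 3 overlapped, with log2 odd minus even values of -0.11 for 1429256_at, -0.02 for 1436057_at and 0.42 for 1428765_at. The probe set 1428765_at had the highest value of any member for knockout minus control, 0.49 (SE 0.30 unpaired, 0.27 paired, limma adjusted p = 0.999 and 0.632). It read 655.8, 193.8, 556.7 and 484.9 in knockouts 1 to 4 against 319.2, 274.8, 269.6 and 300.9 in controls 1 to 4, so that pair 2 ran the other way. Probe sets of 1 gene can match different exons, introns or transcript ends, and their sequences are not used here.

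**Figure D2:**
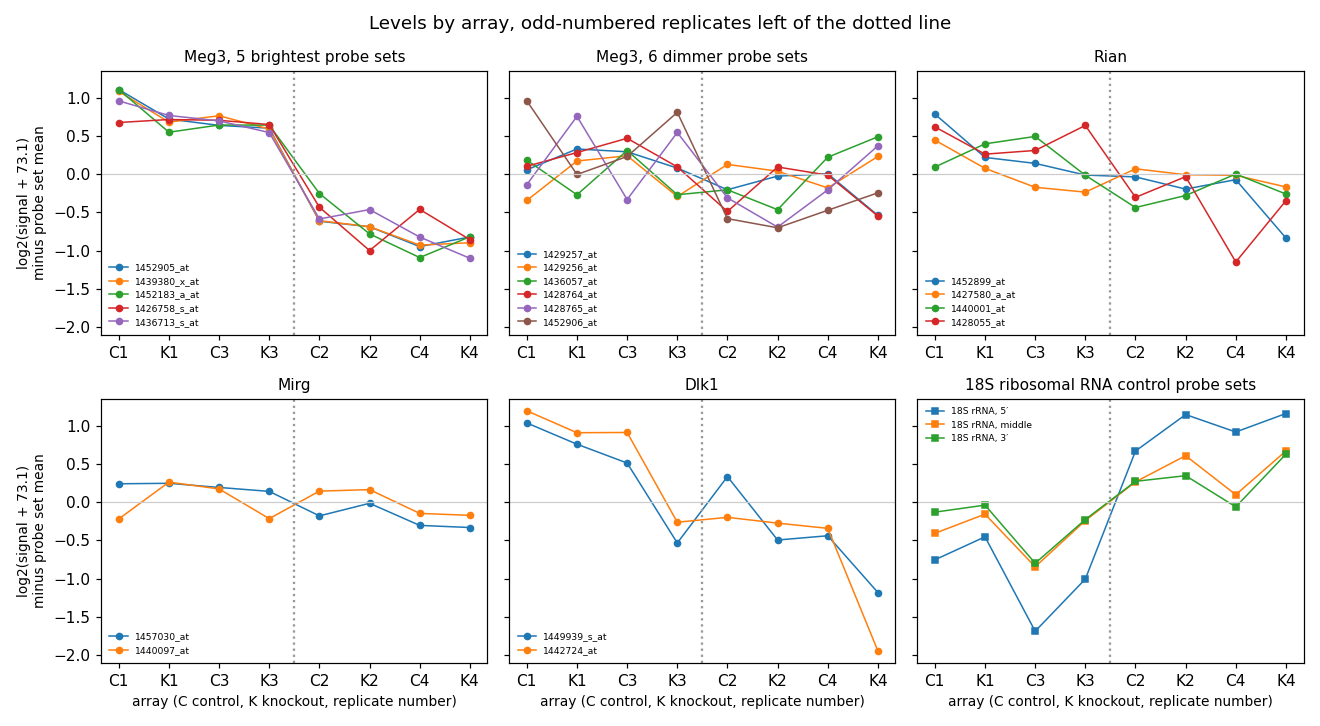
Level of each probe set on each array, as log2(signal + 73.1) minus its mean over the 8 arrays (vertical axes), with odd-numbered control (C) and knockout (K) arrays left of the dotted line and even-numbered ones right of it. The 5 brightest Meg3 probe sets step down together from left to right, by 1.37 to 1.56 in the mean, while the 5′ and middle 18S ribosomal RNA probe sets are higher on the right, and of Mirg 1457030_at steps down by 0.41 and 1440097_at is level.

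The 5′ and middle 18S ribosomal RNA probe sets ran with the replicate number in the opposite sense to Meg3. The middle one read 4488 to 7281 on odd-numbered and 8700 to 12977 on even-numbered arrays, whereas the 3′ one overlapped, at 3228 to 5520 and 5433 to 8812. Ratios of 3′ to 5′ signal were 1.66 to 2.06 for beta-actin and 0.956 to 1.13 for Gapdh over the 8 arrays. The part of these in the Meg3 pattern was not tested. Of the 14 stromal markers on the array, 1 had all odd-numbered values above all even-numbered ones, which was Pdgfrb, named after its values were seen (23238 to 28600 against 10786 to 18678). The summed signal of the 12 markers of skeletal muscle was 2778 to 4822 on odd-numbered and 3990 to 5216 on even-numbered arrays, and 0 of the 12 separated the odd-numbered arrays from the even-numbered ones.

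Rian, the host RNA that follows Meg3, had a lower signal in the knockout by its brightest probe set, without passing the threshold. This probe set, 1452899_at, read 13589, 7652, 8661 and 7462 in controls 1 to 4, respectively. In knockouts 1 to 4 it read 9146, 6845, 7784 and 4364. All 4 pairs were lower, by 0.57, 0.16, 0.15 and 0.76 on the log2 scale, and the groups overlapped. The mean log2 difference was -0.41 (SE 0.23 unpaired, 0.11 paired, limma adjusted p = 0.999 and 0.227). The paired 95% interval was -0.65 to -0.18, which takes no account of the number of probe sets tested. Without knockout 4 or control 1 the unpaired value was -0.20 or -0.22.

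The other Rian probe sets were mixed. 1427580_a_at read 2045 to 3177 in controls and 1954 to 2442 in knockouts and was lower in all 4 pairs, by a mean of 0.17 on the log2 scale (value -0.17, SE 0.15). 1440001_at had a log2 difference of -0.08 (SE 0.24) and 1428055_at one of 0.26 (SE 0.35), with pairs of both signs in each. None of the 3 passed by limma in either fit. By replicate number, 1452899_at and 1428055_at had all odd-numbered arrays above all even-numbered ones, at 7784 to 13589 against 4364 to 7652 and 623.3 to 830.5 against 188.7 to 494.7. Their log2 odd minus even values were 0.57 and 0.92, less than those of the 5 brightest Meg3 probe sets; this difference was not tested.

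Mirg, the RNA that holds the largest number of the hairpins counted above, had the smallest differences between the groups among the 19 probe sets, by both of its own. Its probe set 1457030_at read 1062, 775.1, 1025 and 705.0 in controls numbered 1 to 4, and 1067, 877.6, 986.3 and 690.1 in the knockouts so numbered. The log2 difference was 0.02 (SE 0.19 unpaired, 0.14 paired, limma adjusted p = 0.999 and 0.984), with a paired 95% interval of -0.29 to 0.34. Here too the odd-numbered arrays lay above the even-numbered ones, by 0.41 on the log2 scale. The other probe set, 1440097_at, read 643.6 to 867.7 in controls and 645.5 to 927.7 in knockouts, with a log2 difference of 0.02 (SE 0.18) and a value of 0.00 for odd minus even.

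Dio3os, the transcript opposite to Dio3, is not among the chosen genes and was looked up because Dio3 itself could not be read. Its probe set 1435121_at was too dim to be tested. It read 267.9, 225.1, 179.7 and 160.9 in controls numbered 1 to 4, and 270.6, 58.0, 202.5 and 112.4 in the knockouts so numbered. The log2 difference was -0.35 (SE 0.34), with pairs of both signs.

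Set side by side, both Dlk1 probe sets and 2 of the 4 of Rian were lower in every pair, and none of Meg3 or Mirg was. Over the 18 tested probe sets the unpaired fit called 0 (limma; 0 also at an unadjusted p under 0.05), where it called 0.0037% of all tested probe sets and 3.77% had an unadjusted p under 0.05. The paired fit called 1, the Dlk1 probe set 1449939_s_at, against 0.0481% of all, 0.037% higher and 0.0111% lower. At an unadjusted p under 0.05 the paired fit had 3, both Dlk1 probe sets and Rian 1452899_at, all lower, against 9.14% of all, of which lower ones made up 4.47% of all tested. The knockout was lower in all 4 pairs for 4 of the 18 (those of Dlk1 and 2 of Rian), against 8.25% of all. In 13 of the 18 the log2 difference was below 0, with a median of -0.11, and over all tested probe sets 48.7% were below 0 and the median was 0.01. As the proposal drew on this contrast, nothing is read from these shares. Whether Dlk1 differed from Meg3 in its response was not tested.

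**Figure D3:**
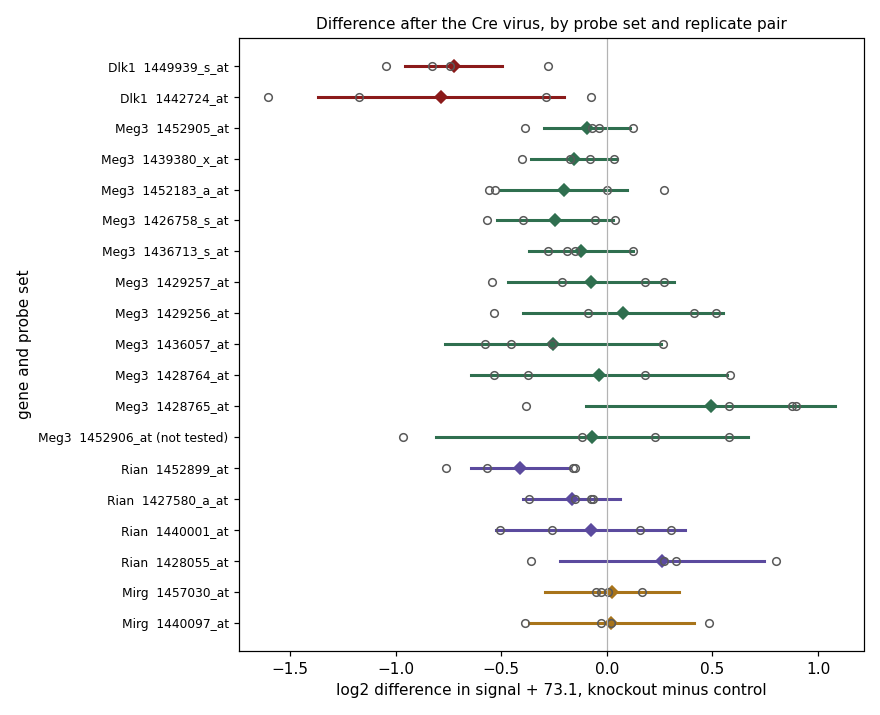
Log2 difference in signal + 73.1, knockout minus control (horizontal axis), for each of the 19 probe sets (vertical axis), with open circles for the 4 replicate pairs, diamonds for their mean and bars for the 95% interval of the paired fit. The bars of both Dlk1 probe sets and of Rian 1452899_at lie below 0, and those of the other 16, among them all of Meg3 and Mirg, cross it.

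By replicate number, 10 of the 18 tested probe sets had all odd-numbered arrays above all even-numbered ones, where 6.93% of all tested probe sets did so. A mean log2 difference of odd minus even of at least 1, without overlap, was seen in 5 of them, the brightest 5 of Meg3. The same held for 1.13% of all tested probe sets. Ranked by odd minus even among the 27022, these 5 stood at places 62 to 124. Most of the 10 were probe sets of a single gene, Meg3. As the proposal drew on the Meg3 levels by replicate number, nothing is read from these shares and places. Dlk1 also had a higher mean on odd-numbered arrays, by 0.89 on the log2 scale for 1449939_s_at and 1.38 for 1442724_at, but with overlap. In controls the Dlk1 order was arrays 1, 3, 2 and 4, and in knockouts 1, 2, 3 and 4 for the brighter probe set, with 25168 and 24503 on knockouts 2 and 3 close together.

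**Figure D4:**
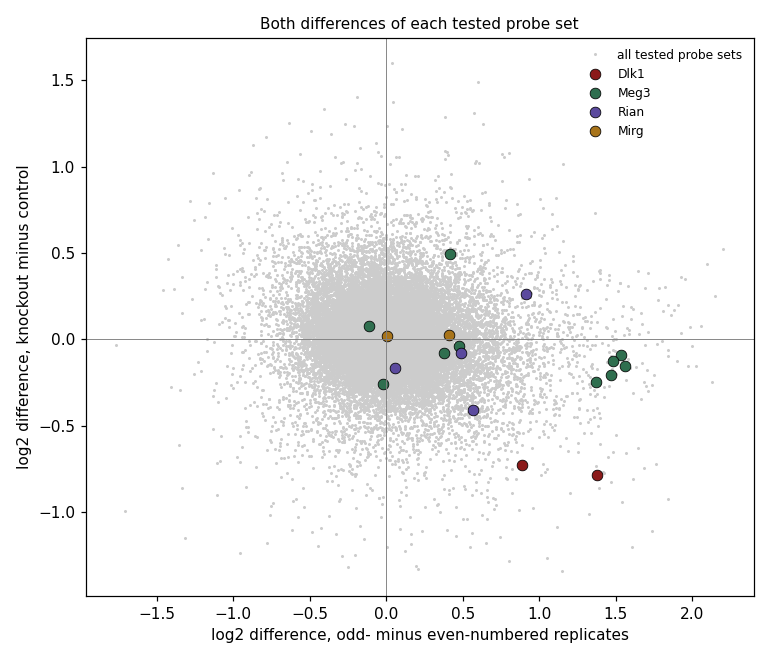
Each tested probe set by its log2 difference of odd- minus even-numbered replicates (horizontal axis) and of knockout minus control (vertical axis), with all 27022 in grey and the 18 of the locus in colour. The 5 brightest Meg3 probe sets lie at the right near 0 on the vertical axis (-0.09 to -0.24), and the 2 of Dlk1 lie lower right at -0.72 and -0.79.

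The promoters of Dlk1 and Meg3 are shown because these genes carry the main contrasts above. Each is the RefSeq window of 300 bases on the plus strand of GRCm38.p6, chr12:109452573-109452872 for Dlk1 and chr12:109540746-109541045 for Meg3. Capitals mark matches, on either strand, to 3 promoter motifs. They are the cyclic AMP response element, spelled TGACGTCA, the core promoter element TATAAA, and the CCAAT box.
Dlk1: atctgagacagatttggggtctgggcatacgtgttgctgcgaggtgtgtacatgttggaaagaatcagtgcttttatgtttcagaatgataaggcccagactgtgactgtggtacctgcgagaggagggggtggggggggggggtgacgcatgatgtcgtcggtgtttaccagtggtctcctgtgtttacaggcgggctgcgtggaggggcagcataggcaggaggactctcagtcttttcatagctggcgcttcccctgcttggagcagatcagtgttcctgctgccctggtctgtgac
Meg3: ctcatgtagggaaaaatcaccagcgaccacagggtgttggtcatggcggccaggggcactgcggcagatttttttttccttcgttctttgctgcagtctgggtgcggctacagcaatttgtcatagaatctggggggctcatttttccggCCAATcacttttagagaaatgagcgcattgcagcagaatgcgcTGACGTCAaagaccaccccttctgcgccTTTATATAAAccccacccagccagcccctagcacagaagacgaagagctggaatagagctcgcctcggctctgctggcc
The Meg3 window held 1 match to TGACGTCA, 1 to CCAAT and 2 to TATAAA, which overlap on opposite strands, and these letters did not occur in the Dlk1 window. Of 32851 RefSeq promoter windows of the same length, 1.79% held TGACGTCA, 13.6% held TATAAA and 37.4% held CCAAT.

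Nearest to Dlk1 1449939_s_at in array profile were single probe sets of Sfrp2, Tafa5 and Ndrg1. Sfrp2 is a secreted Wnt modulator, Tafa5 a secreted peptide and Ndrg1 a stress-responsive gene. The measure was the root mean square difference of mean-centred log2 values over the 8 arrays, which was 0.16, 0.17 and 0.19. Their log2 differences of knockout minus control were -0.54, -0.81 and -0.48. The other Tafa5 probe set lay at -0.33, and the other ones of Ndrg1 between -0.52 and -0.19. Sfrp2 read 7916, 5288, 5855 and 2458 in controls numbered 1 to 4, and 6543, 2859, 3269 and 2129 in the knockouts so numbered. By the same measure the other Dlk1 probe set, 1442724_at, lay at 0.39 from the first. The profile of Rian 1452899_at lay at 0.39 from Dlk1 and that of Meg3 1452905_at at 0.57.

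Nearest to Meg3 1452905_at were single probe sets of Zfp950, Araf, a kinase of the RAF family, and Erbin, an ERBB2-binding scaffold protein, at 0.11, 0.16 and 0.16. Zfp950 read 1508, 398.8, 892.6 and 254.6 in controls numbered 1 to 4, and 1149, 363.4, 871.0 and 277.4 in the knockouts so numbered. Their log2 odd minus even values were 1.56, 1.36 and 1.67. The other 4 probe sets of Araf lay between -0.13 and 0.19 on that scale, and those of Erbin between 0.48 and 1.46. As with Meg3, the step by replicate number thus depended on which probe set of a gene was read.

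Among genes around and upstream of the locus, 0 passed in the unpaired fit. Of all 13256 tested genes, 3.93% had an unadjusted p under 0.05 in the unpaired and 10.3% in the paired fit, and 50.4% lay below 0, with a median log2 difference of 0.00. The flanking genes of the same chromosome arm had 17 tested members, with 0 called by limma in either fit, 1 (5.88%) at an unadjusted p under 0.05 in each fit and a median log2 difference of -0.02. Degs2, a sphingolipid desaturase, averaged 386 ± 132 in controls against 187 ± 102 in knockouts (± SD, n = 4), a log2 value of -0.86 with SE 0.34 (limma adjusted p = 0.999). It read 244.8, 464.6, 526.1 and 306.6 in controls 1 to 4, and 254.9, 109.6, 90.8 and 293.8 in knockouts 1 to 4. Only knockouts 2 and 3 were thus far below their controls. The 21 tested chromatin and DNA methylation factors had 0 calls in either fit, 0 and 2 (9.52%, against 10.3% of all genes) at an unadjusted p under 0.05 in the unpaired and paired fits, and a median of 0.05. Of the 21, 13 lay above 0 and 8 below it (38.1%, against 50.4% of all genes). The 3 of smallest unpaired p were Uhrf1 at -0.30 (SE 0.15), Mbd3 at -0.23 (SE 0.17) and Aff3 at 0.25 (SE 0.21) in log2. Uhrf1, which recruits the maintenance DNA methyltransferase, was lower in 4 of 4 pairs, as was Mbd3, and Aff3 was lower in 1 of 4. Another tested probe set of Uhrf1 lay at -0.13. Imprinted genes of other loci had 34 tested members, 0 called in the unpaired and 1 in the paired fit, 0 and 6 (17.6%, against 10.3% of all genes) at an unadjusted p under 0.05, and a median of -0.06. The 3 of smallest unpaired p were Nap1l5 at 0.66 (SE 0.32), Impact at -0.17 (SE 0.10) and Osbpl5 at -0.22 (SE 0.14), none of them called. The paired call was Plagl1, an imprinted zinc finger gene, at -0.51 (limma paired adjusted p = 0.0336). It was kept without pair 1 (0.0378) and lost without pair 2 (0.207), pair 3 (0.139) or pair 4 (0.177), at -0.48 to -0.53. Of its other probe sets, 1 lay at -0.58 and 1 at 0.28.

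The Notch and thyroid hormone pathways, in which DLK1 and DIO3 act, gave 0 calls by limma in either fit. The DLK1 and Notch list, with the sheddase of DLK1 and the Notch receptors, ligands, processing enzymes and targets, had 30 tested members. An unadjusted p under 0.05 was found for 2 in the unpaired fit (6.67%, against 3.93% of all genes) and 6 in the paired fit (20%, against 10.3%). Below 0 lay 20 (66.7%, against 50.4%), with a median of -0.06. Mfng, which modifies Notch receptors, averaged 303 ± 74.9 in controls against 467 ± 64.9 in knockouts (± SD, n = 4), a log2 value of 0.53 with SE 0.22 (limma adjusted p = 0.999) and was higher in 4 of 4 pairs. Psen2 and Psenen, both of the gamma-secretase complex, differed by -0.35 (SE 0.15) and -0.22 (SE 0.11) in log2. The thyroid hormone list, the pathway of Dio3, had 14 tested members with 0 calls in either fit, 0 at an unadjusted p under 0.05 in either fit (against 3.93% and 10.3% of all genes) and a median of -0.04. Its 3 genes of smallest unpaired p were the transporter Slc16a10 at 0.23 (SE 0.24), the receptor Thra at -0.18 (SE 0.20) and Sephs2, of selenoprotein synthesis, at 0.10 (SE 0.11).

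Genes of fat cell differentiation, the process that DLK1 restrains, had 19 tested members with 0 calls by limma in either fit. An unadjusted p under 0.05 was seen for 1 gene unpaired (5.26%, against 3.93% of all genes) and 4 paired (21.1%, against 10.3%). Above 0 lay 7 and below it 12 (63.2%, against 50.4%), with a median of -0.02. Klf15, a late adipogenic transcription factor, read 560.9, 606.6, 545.6 and 641.7 in controls numbered 1 to 4, and 508.7, 111.6, 284.4 and 281.6 in the knockouts so numbered. It was lower in every pair and the groups did not overlap, as in 2.46% of all tested probe sets, and differed by -0.95 in log2 (SE 0.30, limma adjusted p = 0.999). Fasn, fatty acid synthase, differed by -0.40 in log2 (SE 0.22 unpaired, 0.08 paired, limma adjusted p = 0.999 and 0.124) and was lower in 4 of 4 pairs. Zfp423, a preadipocyte determination factor, differed by 0.64 (SE 0.38, limma adjusted p = 0.999) and was lower in 1 of 4 pairs. Its value was 0.09 on odd-numbered arrays only and 1.19 on even-numbered arrays only. Fabp4, also on this list, read 2080, 3941, 3057 and 3493 in controls 1 to 4. In knockouts 1 to 4 it read 1877, 5961, 5952 and 6206, lower in pair 1 and higher in pairs 2, 3 and 4. The paired fit without pair 1 called it, at 0.78 in log2 (limma adjusted p = 0.0204).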

How the data were processed

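The deposited values are linear array intensity per probe set. Per the submitters' processing notes they were made with GCOS 1.3 and MAS5; other steps are not given in the sources used here. Trimming 2% at each end, the mean signal came to 1500 for each of the 8 arrays.

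From these, log2(deposited signal + 73.1) was computed, 73.1 being the 20th percentile of the signals. After removal of 64 array controls, testing was limited to the upper 60% in mean log2 level, done with lmFit and eBayes (mean-variance trend) of limma 3.58.1 in R 4.3.3, with two-sided p-values adjusted by Benjamini-Hochberg over the 27022 and a threshold of 0.05. Figures were drawn with matplotlib 3.10.9. The fit was tested on simulated data. The unpaired fit is the primary one. Deviations from the group means correlated at 0.342, 0.189, 0.199 and 0.373 between same-numbered arrays, each over 0.1, so same-numbered samples were treated as pairs and the paired fit is given too. Arrays of different numbers gave 0.084 to 0.149 where both numbers were odd or both even, and -0.347 to -0.127 otherwise. Some arrays that are not pairs thus also passed 0.1. What a number marks is not in the labels.

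Members, gene lists and tests were chosen with earlier results of these data known. Named from each list were the 3 tested genes of smallest unadjusted p, of which the text gives 1 to 3. Plagl1 was added as a paired call, and Cdkn1c and Fabp4 as paired calls without pair 1. For Dlk1 and Meg3 the 3 nearest profiles were named. For list genes the brightest tested probe set was used. Alternatives were the pseudocount, filter, scaling, trend, array weights, the block and leaving out arrays or pairs.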

Additional observations from a re-analysis of the deposited data

Results flagged for a closer look

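In 1 of 38 groups of 4 arrays, over the 19 probe sets of the locus, a single array lay far from the other 3. It was Meg3 1436057_at on knockout 4, at 573.4 against 260.6 to 308.9 on the other knockout arrays. Chance gives such a gap in about 1 in 20 groups.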

How the results depend on the processing

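The number of probe sets called was 1 in the unpaired fit and 0 with no filter, median centring, no mean-variance trend, odd-numbered or even-numbered arrays only. It was 0 to 2 with single arrays left out and 13 with the replicate block (10 higher, 3 lower), or 0 to 80 with the block and 1 pair left out, the 80 being without pair 1 (45 higher, 35 lower). Members of the locus called were 0 in the unpaired fit, 1 with the replicate block and 0 to 1 with the block and 1 pair left out, each time Dlk1 1449939_s_at. Imprinted genes of other loci gave 0 unpaired, 1 with the block and 0 to 2 with 1 pair left out (the 1 being Plagl1, and the 2 Plagl1 and Cdkn1c without pair 1, with 0 without pair 2, 3 or 4), and fat cell genes gave 0, with 0 to 1 there (Fabp4, higher, without pair 1). The block changed no other call on the members or lists. Among the tested probe sets, both of Dlk1 and Rian 1452899_at and 1427580_a_at stayed below 0 in every alternative run. Meg3 1428765_at stayed above 0 in every one, at 0.10 to 0.89. The 5 brightest Meg3 probe sets did not keep their sign, moving for 1452905_at from -0.42 without control 4 to 0.26 without control 1. The causes were not tested. Detection calls were not used here, so which dim probe sets lie above background is not known.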
